A study of Mus musculus with 12 samples.

Results

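The genes described here detoxify peroxides and reactive electrophiles. They comprise the glutathione S-transferases, glutathione peroxidases and peroxiredoxins, together with enzymes of glutathione and thioredoxin metabolism, the superoxide dismutases and catalase, and the regulator pair NRF2 and KEAP1. Members were taken by symbol from the platform annotation: names starting with Gsta, Gstm, Gstp, Gstt, Gsto, Gstk, Gstz, Gpx or Prdx and a number, plus 14 genes named singly. Of 47 symbols that met this rule, 45 had a probe set annotated to that gene alone, out of 18193 such genes on the array. Prdx1 was listed on 5 probe sets only together with another symbol, and Gsta1 on 1, and neither was used. The samples were TBV2 cells, a wild-type embryonic stem cell line of the 129/SvP mouse strain. Control cultures and proline cultures shared a gelatin surface without feeder cells and a medium with leukemia inhibitory factor (LIF) that lacked non-essential amino acids. Both were kept for 5 days, the proline cultures with 500 µM L-proline added and the control cultures without it. Each group had 2 biological replicates with 3 arrays each, and all values below are log2 signals averaged over the 3 arrays of a replicate. The labels do not state whether the 2 biological replicates came from separate cultures, and the p-values measure only the spread between them, which may be technical.

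Glutathione is a tripeptide thiol made from glutamate, cysteine and glycine, and glutathione peroxidases and S-transferases use it to reduce peroxides and to conjugate electrophiles. Peroxiredoxins do similar work with electrons from thioredoxin, while superoxide dismutases turn superoxide into hydrogen peroxide. Many of these genes carry antioxidant response elements bound by NRF2 (gene Nfe2l2), which KEAP1 marks for degradation until oxidants or electrophiles modify it. Proline itself is tied to redox balance, because its oxidation in mitochondria and its synthesis in the cytosol turn over reducing equivalents.

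Promoter sequences are shown for the 4 members that passed the test given below, Nqo1, Sod2, Gpx2 and Gsta3. Gclm, an NRF2 target that did not pass it, is shown as well. The sequences are the 250 bases before the annotated start, 5′ to 3′ on the gene's strand, from RefSeq annotation of assembly GRCm38.p6. Capitals mark matches to TGACNNNGC, the core of the antioxidant response element, searched on both strands with overlaps allowed.
Nqo1, chr8:107403206-107403455, minus strand: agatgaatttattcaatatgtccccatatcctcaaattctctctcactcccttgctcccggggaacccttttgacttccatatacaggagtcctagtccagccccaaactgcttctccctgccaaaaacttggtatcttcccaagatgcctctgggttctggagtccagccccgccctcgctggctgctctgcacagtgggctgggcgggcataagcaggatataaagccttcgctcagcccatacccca
Sod2, chr17:13007589-13007838, plus strand: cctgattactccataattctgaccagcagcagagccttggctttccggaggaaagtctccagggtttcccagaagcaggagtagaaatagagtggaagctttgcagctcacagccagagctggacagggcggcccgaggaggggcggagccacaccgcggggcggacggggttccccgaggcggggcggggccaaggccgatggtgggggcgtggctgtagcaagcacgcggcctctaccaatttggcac
Gpx2, chr12:76795555-76795804, minus strand: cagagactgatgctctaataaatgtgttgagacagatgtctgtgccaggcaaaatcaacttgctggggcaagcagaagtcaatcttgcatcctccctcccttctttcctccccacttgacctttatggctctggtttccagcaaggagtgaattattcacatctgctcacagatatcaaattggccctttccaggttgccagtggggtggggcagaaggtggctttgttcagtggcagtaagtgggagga
Gsta3, chr1:21240335-21240584, plus strand: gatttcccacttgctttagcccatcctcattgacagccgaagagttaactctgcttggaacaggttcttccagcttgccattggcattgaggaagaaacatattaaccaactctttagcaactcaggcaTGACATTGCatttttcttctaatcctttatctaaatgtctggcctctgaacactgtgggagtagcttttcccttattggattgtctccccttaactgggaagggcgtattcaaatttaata
Gclm, chr3:122245307-122245556, plus strand: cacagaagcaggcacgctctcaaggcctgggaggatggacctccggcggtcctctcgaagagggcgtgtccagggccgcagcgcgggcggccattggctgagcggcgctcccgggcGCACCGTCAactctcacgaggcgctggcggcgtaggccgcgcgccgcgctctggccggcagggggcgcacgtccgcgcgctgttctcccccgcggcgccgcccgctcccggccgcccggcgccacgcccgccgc
Gsta3 held 1 match on the gene's strand, from 121 to 113 bases before the start, and Gclm held 1 on the opposite strand. The windows of Nqo1, Sod2 and Gpx2 held 0 matches, which says only that these letters are not in these 250 bases. Over all members, 7 of the 40 with a promoter in the table had a match in at least 1 window: Gclm, Gsta3, Gstm5, Gstm7, Nfe2l2, Sod1 and Txnrd1. The share over all promoters was 10.2% of 32851, or 11.5% of 27025 genes with at least 1 window that matched. A match is a description of the letters and not evidence of binding.

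Proline and control cultures were compared to find which of these genes differed after 5 days with the amino acid. Nqo1, Gsta3, Sod2 and Gpx2 passed the test as lower, and 0 members passed as higher. The test was limma's moderated test on the replicate means, adjusted over all 18193 genes by Benjamini-Hochberg, with a threshold of 0.05. Over all genes, 4.36% passed, 3.03% higher and 1.34% lower, against 4 of 45 members (8.89%), all of them lower. At an unadjusted p under 0.05, limma gave 5 members higher and 11 lower of 45, where 12.7% of all genes were higher and 9.32% lower (22.1% in either direction). The median log2 difference of the 45 members was -0.08, beside -0.03 over all genes, and 60% of members measured below 0, beside 56.1% of all genes. The 6 proline arrays lay apart from the 6 control arrays for 19 members, 12 lower and 7 higher, where 24.6% of all genes did so (10.8% lower and 13.8% higher). The 2 proline replicate means lay on one side of both control means for 17 members below and 11 members above, where 52.7% of all genes did so (28.7% lower and 24.0% higher). For 29 of the 45 members (64.4%) the measured difference was under 0.5 on the log2 scale, as for 79.9% of all genes. The smallest two-sided p of an exact permutation test of 2 replicates against 2 is 0.333, and the p-values given therefore depend on the variance model of limma. Leaving out any 1 of the 4 biological replicates left 0 members and 0 genes past the threshold, with 7 to 12 members lower and 3 to 6 higher in limma by an unadjusted p under 0.05. The same cut then held for 5.22% to 9.59% of all genes lower and 9.89% to 12.2% higher.

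**Figure D1:**
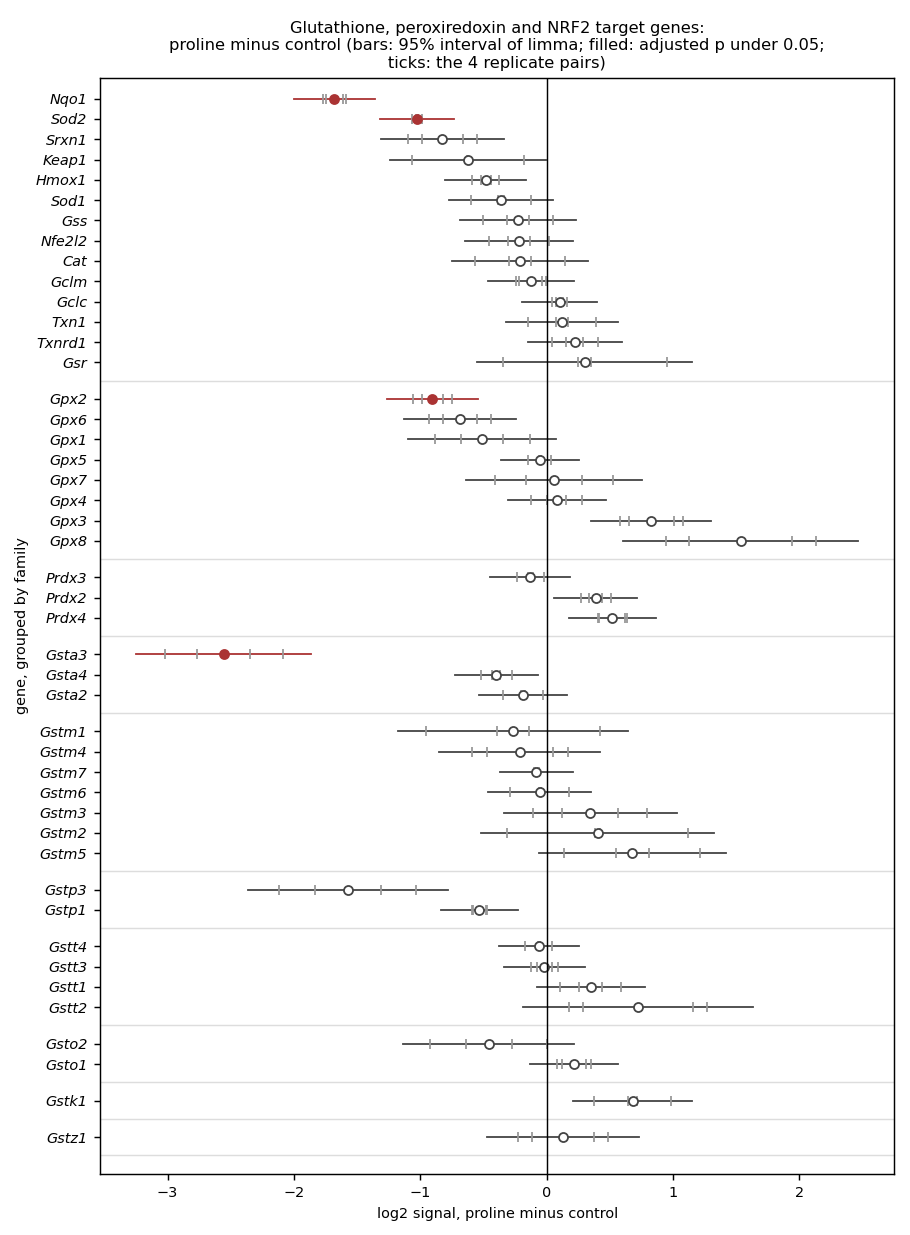
Log2 signal difference, proline minus control, for each of the 45 members, grouped by family. Circles give the mean difference, bars its 95% interval from limma, grey ticks the 4 pairs of a proline and a control replicate, and filled red circles the 4 members with an adjusted p under 0.05. Gsta3 lies lowest at -2.56 and Gpx8 highest at 1.54.

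Nqo1 encodes the quinone reductase NAD(P)H dehydrogenase, which is a standard readout of NRF2 activity. Its log2 signal was 7.21 and 7.23 in control replicates 1 and 2 and 5.62 and 5.46 in proline replicates 1 and 2. The controls nearly coincide and both proline values lie far below them. Nqo1 fell by 1.68 ± 0.12 on the log2 scale (moderated SE, n = 2 per group; limma adjusted p = 0.0246), a 3.20-fold difference. The proline mean of 5.54 is close to the 40th percentile of all probe sets, 5.36, under which signal is not told from background here.

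Hmox1 encodes heme oxygenase 1, another classical NRF2 target. It read 9.40 and 9.26 in controls and 8.81 and 8.88 after proline, so that the groups did not overlap. The difference was -0.48 ± 0.12 and did not pass (limma adjusted p = 0.111).

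The regulators themselves showed smaller or less even differences. Nfe2l2 read 10.06 and 10.22 in controls and 9.76 and 10.08 after proline. These values overlap, and the 95% interval of the difference ran from -0.65 to 0.21. Keap1 read 9.08 and 8.63 in controls against 8.01 and 8.45 after proline, lower in both but with replicates of one group 0.44 or more apart. Its difference of -0.62 ± 0.23 did not pass (limma adjusted p = 0.224), and the other Keap1 probe set measured -0.29. Transcript signals do not measure NRF2 protein, which is the level at which KEAP1 acts.

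Superoxide dismutases and catalase gave 1 fall among 3 genes, beside 1.34% of all genes that passed as lower. Sod2, the manganese enzyme of the mitochondrial matrix, read 11.88 and 11.91 in controls and 10.89 and 10.84 after proline. Each group is tight and they lie a whole log2 unit apart. Sod2 fell by 1.03 ± 0.11 (limma adjusted p = 0.0300), a 2.04-fold difference. Its 3 other probe sets measured -0.77, -0.76 and -0.50.

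Sod1, the copper-zinc enzyme of the cytosol, read 13.44 and 13.18 in controls and 13.05 and 12.84 after proline. Both proline values are below both controls, with a difference of -0.36 ± 0.16 that did not pass (limma adjusted p = 0.276). One of the other 4 Sod1 probe sets measured in the opposite direction, at 0.17. Catalase (Cat), which splits hydrogen peroxide in peroxisomes, read 9.96 and 9.70 in controls and 9.39 and 9.84 after proline, and these overlap.

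Glutathione synthesis genes did not pass. The rate-limiting step belongs to glutamate-cysteine ligase, with the catalytic subunit Gclc and the modifier Gclm. Gclc read 9.72 and 9.81 in controls and 9.85 and 9.88 after proline, a difference of 0.10 with a 95% interval from -0.20 to 0.40. Gclm read 10.54 and 10.75 in controls and 10.53 and 10.51 after proline, with an interval from -0.47 to 0.21. For both subunits these intervals leave out a 2-fold change in either direction.

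Glutathione synthetase (Gss), which adds glycine, read 8.35 and 7.98 in controls and 7.84 and 8.03 after proline, and these overlap. Glutathione reductase (Gsr), which restores the thiol form with NADPH, read 9.72 and 10.32 in controls and 9.97 and 10.67 after proline. Replicate 2 was higher than replicate 1 in both groups by more than the groups differed. The 95% interval for this Gsr probe set ran from -0.55 to 1.15, so that a 2-fold rise lies within it. The other Gsr probe set had less spread, and its proline arrays lay narrowly above its control arrays. It measured 0.28 ± 0.14 with every probe set tested by itself, and did not pass (limma adjusted p = 0.397).

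In the thioredoxin system, Txn1, the cytosolic thioredoxin, read 12.86 and 13.07 in controls and 12.93 and 13.25 after proline. Txnrd1, the cytosolic thioredoxin reductase and an NRF2 target, read 11.58 and 11.83 in controls and 11.87 and 11.98 after proline. Its difference of 0.22 ± 0.14 did not pass (limma adjusted p = 0.461). Srxn1 encodes sulfiredoxin, which repairs overoxidized peroxiredoxins, and is also an NRF2 target. It read 8.06 and 8.49 in controls and 7.39 and 7.51 after proline. The groups lie apart, but the controls differ by 0.44 and the difference of -0.83 ± 0.18 did not pass (limma adjusted p = 0.0898). A second Srxn1 probe set measured -0.85 and the remaining pair -0.14 and -0.41.

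Peroxiredoxins held 0 calls among 3 measured genes in limma, with 2 higher at an unadjusted p under 0.05, as were 12.7% of all genes. Prdx4, the peroxiredoxin of the endoplasmic reticulum, read 10.97 and 10.75 in controls and 11.37 and 11.38 after proline. Prdx2, an abundant cytosolic form, read 11.53 and 11.70 in controls and 11.97 and 12.03 after proline. In both genes every proline array lay above every control array, as for 13.8% of all genes. The differences were 0.52 ± 0.13 and 0.39 ± 0.12 (limma adjusted p = 0.112 and 0.171). Prdx3, the mitochondrial form, measured -0.13 with overlapping arrays. The other Prdx4 probe sets measured 0.25, 0.06 and 0.003.

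**Figure D2:**
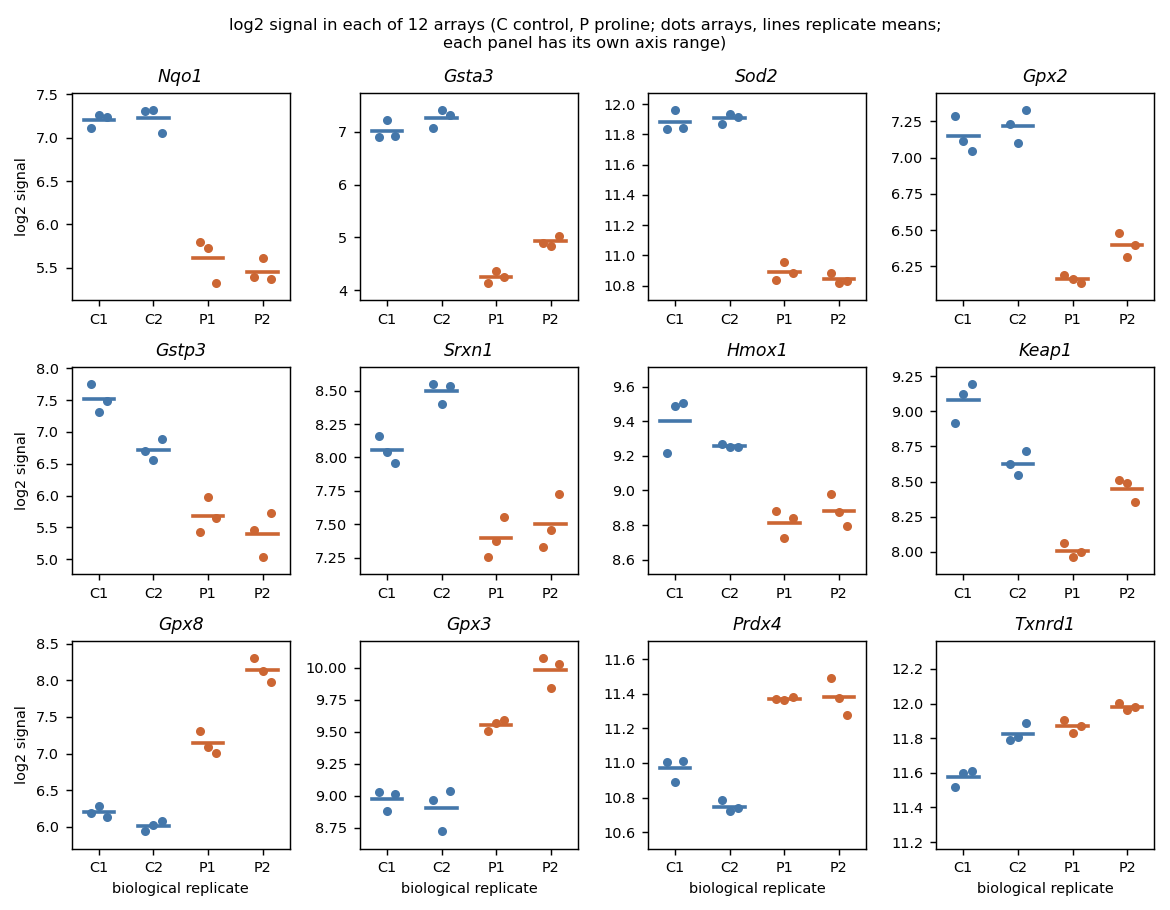
Log2 signal of 12 members in each of the 12 arrays, with control replicates C1 and C2 in blue and proline replicates P1 and P2 in orange. Dots are arrays, lines are means of 3 arrays, and each panel has its own axis range. The 6 control arrays of Nqo1 lie between 7.05 and 7.32 and its 6 proline arrays between 5.32 and 5.79.

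Glutathione peroxidases went both ways, with 4 of 8 above 0 and 4 below. Gpx2, a selenoenzyme best known from gut epithelium and an NRF2 target, read 7.15 and 7.22 in controls and 6.16 and 6.40 after proline. It fell by 0.90 ± 0.14 (limma adjusted p = 0.0442), a 1.87-fold difference. Gpx1, the abundant cytosolic selenoenzyme, read 13.05 and 12.84 in controls and 12.70 and 12.16 after proline. All of its proline arrays were below all of its control arrays, with a difference of -0.51 ± 0.22 that did not pass (limma adjusted p = 0.278). Proline replicate 2 was 0.54 below proline replicate 1, which is more than the difference between the groups.

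In the other direction, Gpx8, a membrane enzyme of the endoplasmic reticulum, read 6.20 and 6.01 in controls and 7.14 and 8.14 after proline. It had the largest positive difference of any member, 1.54 ± 0.35, which did not pass (limma adjusted p = 0.0943). Both proline replicates exceed both controls but differ widely between themselves. Gpx3, the secreted peroxidase of plasma, read 8.97 and 8.91 in controls and 9.55 and 9.98 after proline, a difference of 0.83 ± 0.18 (limma adjusted p = 0.0848).

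Gpx4 reduces lipid hydroperoxides in membranes and restrains ferroptosis. It read 12.59 and 12.32 in controls and 12.60 and 12.47 after proline, with a 95% interval from -0.31 to 0.47 that leaves out a 2-fold change. Gpx7 (0.06) and Gpx5 (-0.06) overlapped between groups, and Gpx6 measured -0.69 ± 0.17 (limma adjusted p = 0.108) with a proline mean just under the 40th percentile.

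Among 20 measured glutathione S-transferases, 1 fell and 19 did not pass, with 8 above 0 and 12 below. Over all genes, 1.34% passed as lower and 3.03% as higher, and 56.1% measured below 0. Gsta3 belongs to the alpha class, which conjugates lipid peroxidation products and, in mouse, aflatoxin epoxide. It read 7.01 and 7.27 in controls and 4.25 and 4.92 after proline. Gsta3 fell by 2.56 ± 0.26 on the log2 scale (limma adjusted p = 0.0289). Its proline mean of 4.58 is below the 40th percentile, where the size of a fold is not well measured. The other Gsta3 probe set, below that level in every replicate, measured -1.33.

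Gsta4, which prefers the lipid aldehyde 4-hydroxynonenal, read 12.17 and 12.26 in controls and 11.90 and 11.74 after proline. The groups were apart by a small -0.40 ± 0.12 (limma adjusted p = 0.162). Gsta2 was dim in every replicate.

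Both pi-class members lay lower in every proline array than in any control array, as did 10.8% of all genes. Gstp3 read 7.52 and 6.72 in controls and 5.68 and 5.40 after proline, a difference of -1.57 ± 0.30 (limma adjusted p = 0.0677). Its control replicates were 0.80 apart. Gstp1, the main pi-class enzyme of proliferating cells, read 12.39 and 12.27 in controls and 11.79 and 11.80 after proline (-0.53 ± 0.12, limma adjusted p = 0.0848).

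All 7 measured mu-class genes lie on chromosome 3, are close in sequence, and had 0 calls in limma, likewise 0 by an unadjusted p under 0.05. Because related transcripts can share probes, their signals are uncertain as to gene. The differences ran from -0.27 for Gstm1 to 0.68 ± 0.28 for Gstm5 (limma adjusted p = 0.262), with a class median of -0.05. Replicate 2 was above replicate 1 in both groups for 5 of the 7 genes, beside 18 of the 45 members and 4522 of all 18193 genes. Gstm1 shows the pattern, at 8.45 and 9.02 in controls and 8.06 and 8.88 after proline. Gstm5 read 8.53 and 8.93 in controls and 9.07 and 9.74 after proline. Array control signals also differed between replicates 1 and 2, and between control and proline cultures. Their part in this was not tested.

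Of the 4 theta-class genes on chromosome 10, Gstt2 read 9.07 and 8.95 in controls and 10.23 and 9.24 after proline. Its difference of 0.72 ± 0.34 (limma adjusted p = 0.321) was carried mostly by proline replicate 1. Gstt1 measured 0.35, Gstt3 -0.02 and the dim Gstt4 -0.06. Gstk1, the mitochondrial and peroxisomal kappa enzyme, read 6.71 and 7.05 in controls and 7.43 and 7.69 after proline, with no overlap of arrays (0.68 ± 0.18, limma adjusted p = 0.121).

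Gsto1, which reduces dehydroascorbate, read 10.34 and 10.57 in controls and 10.69 and 10.65 after proline, and its arrays lay narrowly apart (0.22 ± 0.13, limma adjusted p = 0.445). Gstz1, an enzyme of tyrosine breakdown, read 7.71 and 7.11 in controls and 7.49 and 7.59 after proline. Its control replicates were 0.60 apart and enclosed both proline values.

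Several probe sets were available for 20 members, and in 16 of them all probe sets measured in one direction. The exceptions were Gclm, Gstm7, Sod1 and Txn1, none of which passed. For Sod2, Gsta3, Srxn1 and Keap1 the probe sets shared a direction but spread in size. Sod2 passed with the probe set of highest mean signal, and did not pass when the median over its probe sets was taken (-0.77, limma adjusted p = 0.0855). Nqo1 and Gpx2 had 1 probe set each, but adjusted p also moves with what else is tested. Gpx2 did not pass in the fit of medians over probe sets (limma adjusted p = 0.0572). With every probe set tested by itself, neither Sod2, Gpx2 nor Gsta3 passed (limma adjusted p = 0.0527, 0.0716 and 0.0514).

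**Figure D3:**
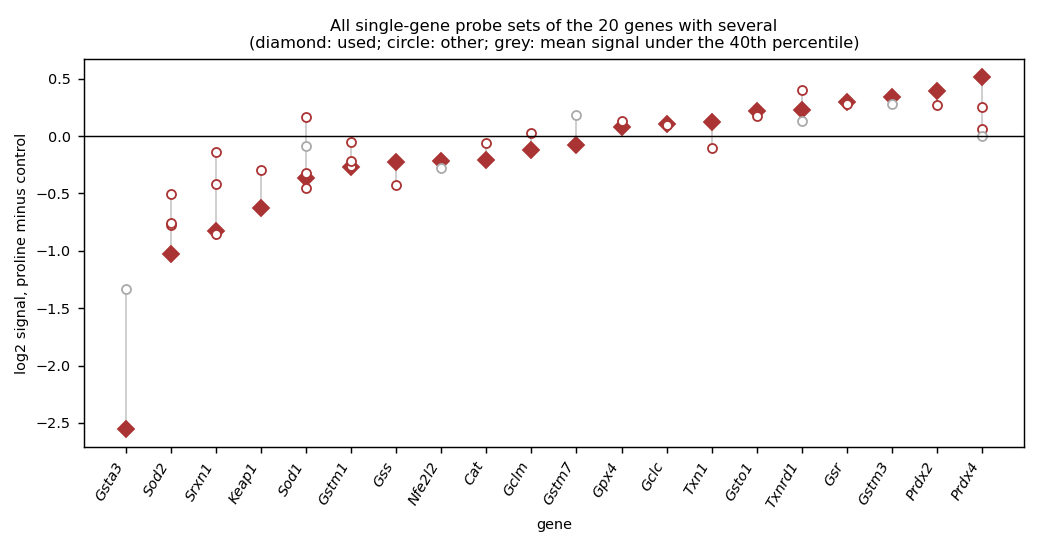
Log2 difference, proline minus control, of every single-gene probe set for the 20 members with more than 1. Filled diamonds are the probe sets used, circles the others, and grey those with a mean signal under the 40th percentile. For Sod2 all 4 probe sets lie below 0, from -1.03 to -0.50, and for Prdx4 all 4 lie above 0 or at it.

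A further 93 genes of glutathione and thioredoxin metabolism and NRF2 control were measured, from a list of 100 in 7 groups. Of these, 3 rose, 2 fell and 88 did not pass, beside 4.36% of all genes that passed in either direction, with a median difference of 0.004. Other NRF2 targets went both ways. Akr1b8, an aldo-keto reductase, fell by 1.54 ± 0.12 (limma adjusted p = 0.0246), from 8.98 and 8.93 in controls to 7.35 and 7.49. Aldh3a1, an aldehyde dehydrogenase, fell by 0.95 ± 0.13 (limma adjusted p = 0.0385), from 5.43 and 5.30 to 4.35 and 4.50. Its controls lie at the 40th percentile and its proline values under it, where the size of a difference is not well measured. Blvrb, a flavin and biliverdin reductase, rose by 1.20 ± 0.13 (limma adjusted p = 0.0296), from 8.13 and 8.11 to 9.22 and 9.42. Blvra, the reductase that acts on the biliverdin made by heme oxygenase, was lower in every proline array, at -0.80, and did not pass (limma adjusted p = 0.172).

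Mgst1, a membrane-bound glutathione transferase outside the symbol rule, rose by 1.34 ± 0.12 (limma adjusted p = 0.0253), from 7.40 and 7.30 in controls to 8.63 and 8.74. Txnrd2, the mitochondrial thioredoxin reductase, rose by 0.86 ± 0.11 (limma adjusted p = 0.0363), from 7.08 and 7.06 to 7.95 and 7.92. Its cytosolic counterpart Txnrd1 is given above with a smaller difference. Whether these 2 differences differ from each other was not tested.

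Among the 12 measured NRF2 regulators, 9 were above 0, 0 passed in limma and 4 were higher by an unadjusted p under 0.05, beside 12.7% of all genes. The group as listed also holds Sod3, an extracellular superoxide dismutase and not a regulator, which measured -0.06 and was dim in every replicate. The repressor Bach1, which competes with NRF2 at antioxidant response elements, read 9.01 and 8.97 in controls and 9.84 and 9.63 after proline (0.75 ± 0.13, limma adjusted p = 0.0567). Of 8 NADPH supply genes 0 passed in limma, and 1 had an unadjusted p under 0.05, beside 22.1% of all genes. That gene was the transhydrogenase Nnt (0.92 ± 0.20, limma adjusted p = 0.0845). In limma 0 of the 15 genes of glutathione synthesis, import and turnover passed. At an unadjusted p under 0.05, 1 was higher and 2 were lower, beside 22.1% of all genes in either direction. The aminopeptidase Lap3 had the smallest p (-0.78 ± 0.14, limma adjusted p = 0.0628). The cystine transporter gene Slc7a11 was dim in every replicate. Of 9 genes listed under selenoprotein synthesis 0 passed in limma. At an unadjusted p under 0.05, 4 were higher and 1 was lower, beside 12.7% and 9.32% of all genes. Selenop, the selenium carrier of plasma and not a synthesis enzyme, had the smallest p (1.16 ± 0.20, limma adjusted p = 0.0536).

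**Figure D4:**
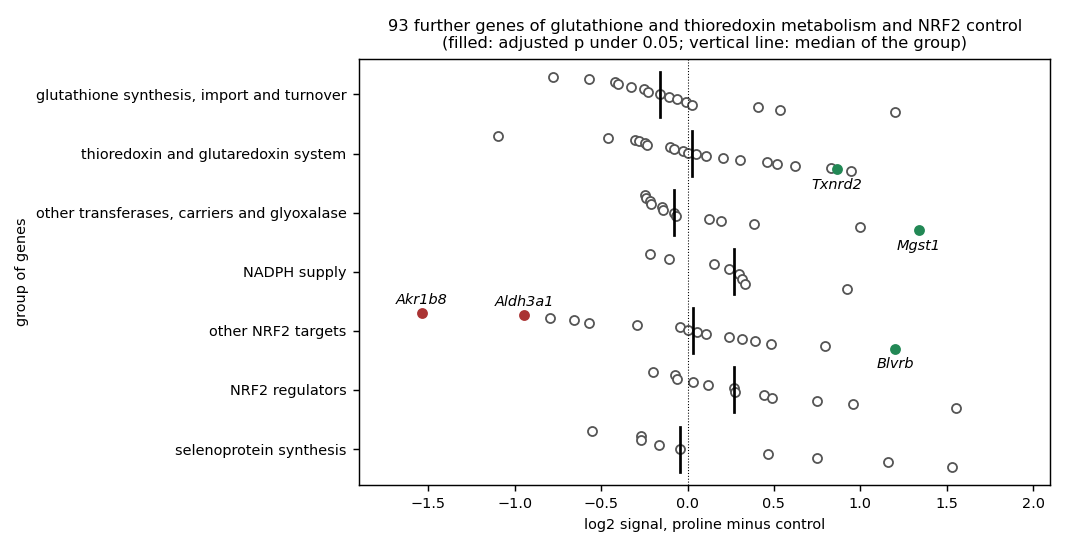
Log2 difference, proline minus control, of 93 further genes in 7 groups; each circle is a gene and the vertical lines are group medians. Filled circles mark the 5 genes with an adjusted p under 0.05: Txnrd2, Mgst1 and Blvrb above 0, Akr1b8 and Aldh3a1 below.

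Arrays of one biological replicate correlated at r = 0.996 to 0.998 over all probe sets, arrays of different groups at 0.962 to 0.981. Defining markers of pluripotent stem cells were present, with 9 of 10 above the 40th percentile in every replicate, and their list mean was 11.6 to 11.8 in all 4. List means hide members that moved in opposite directions: in the pluripotent list Esrrb fell by 1.49 and Fut4 rose by 1.60 from a dim control level (limma adjusted p = 0.0246 and 0.0288). In the trophoblast list Eomes rose by 2.51 (limma adjusted p = 0.0246). Of the 8 genes in that list 5 measured above 0 and 3 below. Tfap2c measured -0.69 and Ascl2 -0.59, both at an unadjusted p under 0.05 in limma. Neither passed (limma adjusted p = 0.073 and 0.141). In the neural progenitor list Nes rose by 2.0 and Fabp7 by 1.01, and Tubb3 fell by 1.94 (limma adjusted p = 0.0352, 0.0498 and 0.0359). The endoderm, fibroblast and liver-like lists held 0 calls in limma, where 4.36% of all genes passed. Each held 1 gene with an unadjusted p under 0.05, beside 22.1% of all genes. These genes were Dab2 at 1.68, Dcn at 0.77 and Hnf4a at -0.64 (limma adjusted p = 0.0545, 0.0769 and 0.0836). List means of extraembryonic endoderm markers were 6.03 and 6.09 in controls and 6.26 and 6.46 after proline, and those of trophoblast markers 6.31 and 6.50 against 6.61 and 6.85. Fibroblast or feeder markers had list means of 5.43 and 5.22 against 5.19 and 5.72, with 4 of 8 genes under the 40th percentile in every replicate, and neural progenitor markers 5.83 and 6.13 against 6.52 and 6.38, with 2 of 7 under it. Of the endoderm list 2 of 10 genes and of the trophoblast list 2 of 8 were under that level in every replicate. Liver-like and mesenchymal markers, 1 of 5 under that level throughout, had means of 7.71 and 8.34 against 7.69 and 8.69, higher in replicate 2 of both groups. Poly-A spike-ins read 8.35 and 8.0 in controls and 8.02 and 7.55 after proline, and 18S ribosomal RNA read 10.74 and 10.04 in controls and 9.74 and 8.35 after proline, lower in replicate 2 of both groups. The 5′ signal of beta-actin minus its 3′ signal was -0.90 and -0.50 in controls and -0.66 and -0.24 after proline. This measure was higher in replicate 2 of both groups. The control signals also differed between the groups. Proline minus control was -1.35 for 18S ribosomal RNA, -0.39 for poly-A spike-ins and -0.24 for hybridization spike-ins. It was 0.25 for beta-actin 5′ minus 3′ and 0.06 for the same measure of Gapdh. The part of these in the values of the members was not tested, and fewer cells of a type cannot be told apart from less RNA per cell.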

How the data were processed

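The 12 arrays are 2 biological replicates per group with 3 arrays each, numbered in the sample titles. The labels do not explain the letters a to c that tell the 3 arrays apart, and these were averaged as repeats. The deposited values are log2 probe set signals that the authors had normalized across arrays: they run from 2.10 to 14.8, with array medians from 5.98 to 6.03 and no missing value. The submitters' processing notes name both MAS5 and RMA, without versions, and do not say which of them made the table. Detection calls were not used here, so a dim signal is not told from background. The number of arrays limits the precision.

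Gene names of probe sets came from the platform's annotation table, with symbols checked by gene ID against RefSeq (GRCm38.p6, names and promoters alone), which changed 0. Exactly 1 symbol belonged to 34945 probe sets, and 932 with several were not named. Each of 18193 genes was represented by its probe set of highest mean signal, with no filter. The 45 members have 77 probe sets, and 41 members had a mean at or over the 40th percentile of all probe sets (5.36) and 4 a lower one. The proline and control means, 4 in all, entered a limma 3.58.1 fit (functions lmFit and eBayes, R 4.3.3) without covariates; p-values are two-sided and adjusted over all genes by Benjamini-Hochberg at 0.05. Errors of differences are moderated standard errors, and intervals are 95%. The fit was also run on simulated data with independent normal noise for each replicate. Such data cannot tell whether the replicates here came from separate cultures. The members and gene lists were chosen with earlier results of these data known. Values per replicate are given for the 14 genes named singly, for members past the threshold, for the 5 largest measured rises and falls, and for the member of highest mean signal in each family; other members are given by their differences, and from the further list the genes past the threshold and the smallest p of each group are named. The replicate values of Prdx4, Gpx4 and Gstm1, and the naming of Slc7a11, Blvra, Sod3 and single cell type markers, fall outside this rule and were added after their values were seen. There were 13 alternatives, on normalization, filter, probe sets, blocks, variance trend and each replicate left out. Figures were drawn with matplotlib 3.10.9.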

Additional observations from a re-analysis of the deposited data

How the results depend on the processing

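Members called lower numbered 4, and 0 were called higher, also with quantile normalization and with median centring. The counts of members higher and lower were 4 and 7 with the replicate block, which gave 1282 and 757 of all genes and 13 and 4 of the further list. With the 12 arrays in a random block they were 7 and 13, with 2318 and 1669 of all genes and 21 and 10 of the list. That fit takes single arrays with 1 shared correlation (0.548), so repeat arrays count in part as replicates. All 4 called members passed in it, and it is 1 of the alternatives counted below. Taking the median over probe sets left 0 and 2 members (Gsta3 and Nqo1), 233 and 118 of all genes and 1 lower gene of the list. Testing every probe set by itself left 0 and 1 (Nqo1), with 110 and 51 of all genes and 1 and 1 of the list. Leaving out dim genes gave 0 and 5 members, with Gstp3 added, and 5 higher and 1 lower gene of the list. An intensity trend gave 0 and 6 members, with Gstp1 and Gstp3 added, and 5 and 3 of the list. Using only probe sets named by a number and _at gave 0 and 3 members (Gpx2, Gsta3 and Nqo1), and 2 and 3 of the list. Without any 1 replicate all of these counts were 0, from 4 for members lower, 551 and 243 for all genes and 3 and 2 for the list. The numbers in the labels do not say that replicates of one number were cultured together, and the check of 2 pairs (r = 0.338 across genes) cannot settle it.

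Over the 13 alternatives, the 4 called members stayed below 0: Nqo1 between -1.76 and -1.60 (called in 9), Gsta3 between -2.89 and -1.94 (called in 8), Gpx2 between -1.02 and -0.79 (called in 7) and Sod2 between -1.05 and -0.77 (called in 6). Adjusted p in limma reached 0.119, 0.126, 0.171 and 0.139. The sign turned in 11 members, 0 of them called in any setting where it did. With a replicate left out, values ran from -0.44 to 0.012 for Cat, -0.057 to 0.22 for Gpx4, -0.29 to 0.40 for Gpx7, -0.05 to 0.65 for Gsr, -0.68 to 0.14 for Gstm1, -0.53 to 0.11 for Gstm4, -0.18 to 0.065 for Gstm6, -0.10 to 0.065 for Gstt3, -0.17 to 0.43 for Gstz1 and -0.038 to 0.28 for Txn1. Gstm7 was 0.05 by the median over its probe sets. The cause of these differences was not tested.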
